A study of Mus musculus with 6 samples.

Results

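WNT proteins are secreted, lipid-modified ligands that bind Frizzled receptors at the cell surface, together with the co-receptors LRP5 or LRP6 in the branch of the pathway that runs through beta-catenin. Without a ligand, a destruction complex built on AXIN and APC marks beta-catenin for degradation, and with a ligand beta-catenin enters the nucleus and acts with TCF/LEF factors. The pathway is restrained at several levels, by secreted inhibitors of the DKK and SFRP families, by the ubiquitin ligases RNF43 and ZNRF3, which remove Frizzleds from the membrane and are themselves held back by R-spondins bound to LGR receptors, and by NOTUM, which strips the lipid from WNT. In the stomach, WNT and R-spondin signals maintain the stem cells of the glands, and several of the inhibitors are themselves targets of the pathway.

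The genes described here were the 53 of 21959 in the count tables whose symbol was Wnt, Fzd, Dkk or Sfrp with a number and an optional letter, plus 16 named members of the same pathway. They comprised 19 WNT ligands, 10 Frizzled receptors, 8 secreted inhibitors, the 2 LRP co-receptors, the 3 LGR receptors, 5 feedback genes (Axin2, Nkd1, Notum, Rnf43 and Znrf3), Axin1 and Ctnnb1, and 4 TCF/LEF factors. RNA was sequenced from 2 mouse gastric adenocarcinoma cell lines, with 3 libraries per line. MPC was the untreated control line. MPC-PTX, labelled as PTX resistance, was the resistant line derived from it by over 30 cycles of paclitaxel (PTX), a drug that stabilises microtubules and arrests cells in mitosis. Both lines carried the genotype CDH1-/-;Trp53-/-, were grown in RPMI medium with serum and had the same batch label. Per the study's methods, MPC came from mouse gastric organoids carrying floxed Trp53 and Cdh1 alleles recombined by Mist1-CreER, which were grown in medium with Wnt-3a and R-spondin-1 and then transplanted under the skin of nude mice. The cells were cloned, and the resistant line was cloned again after the PTX cycles, so each line stands for a single lineage. The labels did not say whether the 3 libraries of a line were separate cultures, so p-values measure the spread between these libraries, which may be technical.

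The libraries held 16574580 to 23148182 counts, and the 53 genes took 0.214 to 0.236% of them, with 34 to 38 of the 53 detected per library. MPC replicate 3 stood apart from the other MPC libraries. The correlation across genes between a library's deviation from its line's mean and the gene's GC content was -0.584 there against 0.467 and 0.353 in MPC replicates 1 and 2, and the variation between replicates was 17.94% in MPC against 3.01% in MPC-PTX (biological coefficient of variation). MPC replicates 1 and 2 also differed from each other. Their chi-square per gene (squared difference in counts over that of counting error) was 14.96, against 1.835 to 3.364 between MPC-PTX libraries. MPC replicate 3 gave 61.11 against MPC replicate 1 and 32.43 against MPC replicate 2. Results are therefore given with all 6 libraries, and without MPC replicate 3 where that changed them. The test fitted a single spread per gene over both lines, so p-values rest on a spread that describes neither line alone. Leaving out any MPC-PTX library lowered the share of all genes tested that were called from 29.7% to at most 16.2%. Calls lost in those fits are to be read beside that share. Cdh1 and Trp53 were not called between the lines (log2 fold change -0.01 and 0.38, edgeR adjusted p = 0.864 and 0.228), and counts summed over a gene cannot show whether an exon was lost. Of the markers of gastric mucosa, Tff1, Tff2, Gkn2 and Pgc were at 0 in every library, and of the 4 tested Ctse, Anxa10 and Muc1 fell and Bhlha15 rose. Ctse was at 233 to 309.8 CPM (counts scaled to a common library size) in MPC and 1.28 to 1.90 CPM in MPC-PTX, and Anxa10 at 89.3 to 150.1 and 0.180 to 0.427 CPM, while Muc1, at 754 and 616 CPM, made up most of the list's sum of 1070 to 1260 CPM in MPC and 616 to 623 CPM in MPC-PTX. These 4 genes are named after their values were seen, and their part in the differences of the WNT genes was not tested. The epithelial markers were abundant. All 8 epithelial markers were lower in MPC-PTX, with a summed level of 9560 to 11000 CPM in MPC and 5760 to 5950 in MPC-PTX. Marker lists of fibroblasts (9.88 to 10.9 against 8.71 to 10.0 CPM), leukocytes (11.5 to 13.0 against 9.98 to 10.8 CPM) and endothelial cells (3.45 to 4.94 against 3.34 to 3.5 CPM) stayed low in both lines.

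Whether the WNT genes differed between the untreated line and the PTX-resistant line was asked of all genes at once, and 28 of the 53 had enough counts to be tested. Of these 28, 16 were called by edgeR's quasi-likelihood test (p-values adjusted over 11795 genes by the Benjamini-Hochberg method, threshold 0.05), a share of 57.1% beside 29.7% of all genes tested. The 6 genes that rose in MPC-PTX were Wnt10a, Wnt16, Notum, Tcf7, Fzd1 and Fzd6 (14.1% of all genes tested rose), and the 10 that fell were Wnt4, Wnt9a, Wnt7a, Fzd7, Fzd5, Fzd2, Lgr6, Tcf7l1, Tcf7l2 and Ctnnb1 (15.6% of all genes tested fell). A log2 fold change beyond 1 was reached by 5 of the 28, where 7.73% of all genes tested did so. These were 2 that rose, Wnt10a and Wnt16 (3.54% of all genes tested), and 3 that fell, Wnt4, Wnt9a and Fzd7 (4.2%). The 3 MPC libraries did not overlap the 3 MPC-PTX libraries for 21 of the 28 genes, beside 46.9% of all genes tested. The median log2 fold change of the 28 was -0.109, beside 0.043 for all genes tested. Because only genes with enough counts were tested, these counts describe the 28 and not all 53. In bulk RNA, fewer cells expressing a gene and less RNA per cell cannot be told apart. The 8 epithelial markers moved in the same direction as the 10 WNT genes that fell, and their part in these differences was not tested.

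**Figure D1:**
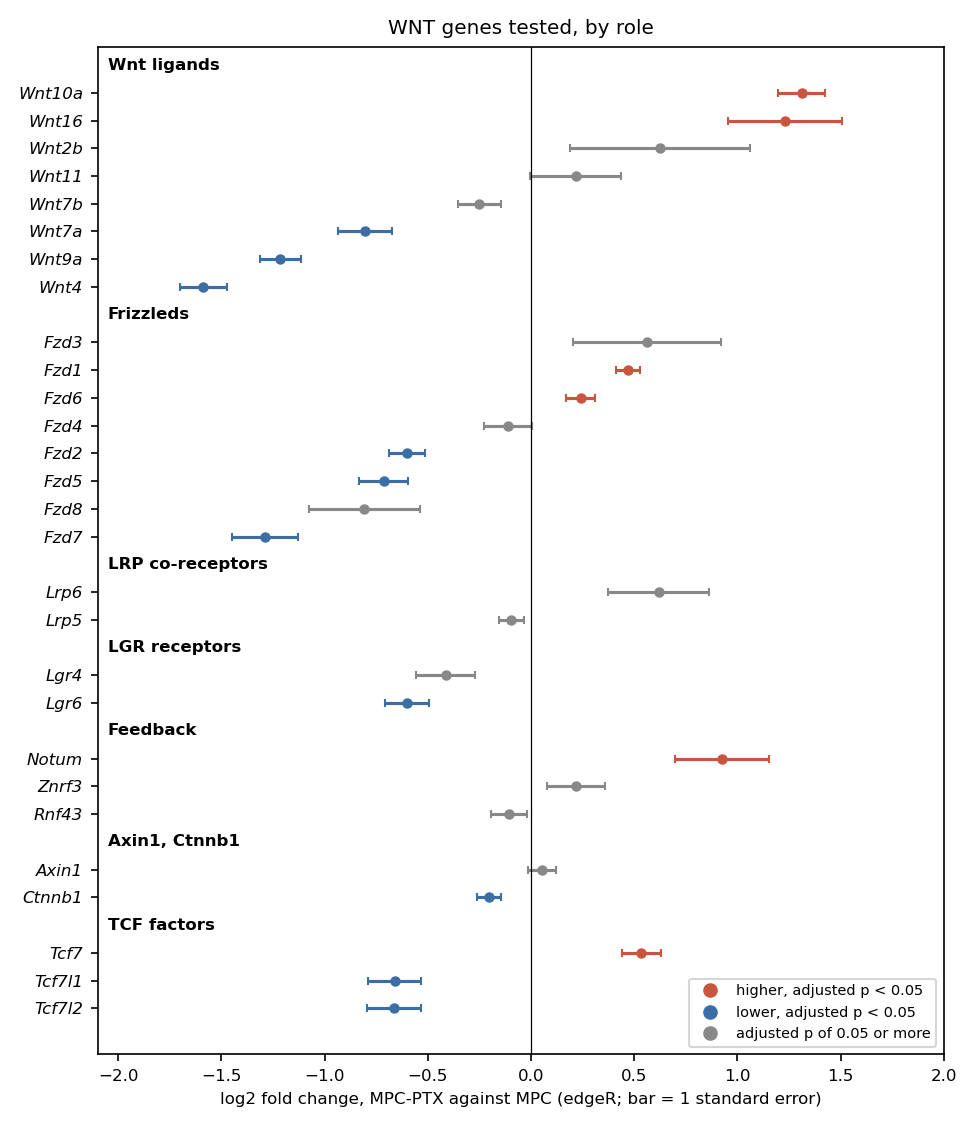
Log2 fold change of MPC-PTX against MPC for the 28 tested WNT genes, grouped by role, as points with bars of 1 standard error from edgeR, coloured by whether the adjusted p was below 0.05. Within the ligands, the Frizzleds and the TCF factors, members lie on both sides of 0, from -1.59 for Wnt4 to 1.31 for Wnt10a.

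The WNT ligands split by gene. Wnt10a and Wnt16 rose, Wnt4, Wnt9a and Wnt7a fell, Wnt7b, Wnt11 and Wnt2b were tested and not called, and the other 11 ligands were at or near 0. Levels below are CPM scaled by library composition, given for MPC replicates 1, 2 and 3 and then for MPC-PTX replicates 1, 2 and 3.

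Wnt10a, a ligand that acts through beta-catenin in skin and its appendages, lies at chr1:74791516-74804179 of GRCm38. It stood at 27.7, 21.8 and 21.3 CPM in MPC and at 59.3, 57.5 and 59.0 CPM in MPC-PTX. All MPC-PTX libraries lay above all MPC libraries, and the mean level was 2.48-fold higher (log2 fold change 1.31, standard error 0.11, edgeR adjusted p = 0.000253). The call was kept under all 14 alternatives. Wnt6, the neighbouring ligand 6.2 kb from Wnt10a, had 0, 0 and 1 counts in MPC and 1, 3 and 2 counts in MPC-PTX, so the level of Wnt10a was not shared by the ligand beside it.

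Wnt4 and Wnt9a moved the other way. Wnt4 at chr4:137277489-137299726, a ligand known from kidney and female reproductive tract development, stood at 24.4, 30.0 and 25.7 CPM in MPC and at 8.29, 9.29 and 9.09 CPM in MPC-PTX. Its mean level was 3.01-fold lower in MPC-PTX, without overlap of the lines (log2 fold change -1.59, standard error 0.11, edgeR adjusted p = 0.000116). Wnt9a at chr11:59306928-59333552, a ligand known from joint formation, stood at 33.8, 29.0 and 29.9 CPM in MPC and at 12.3, 13.9 and 13.8 CPM in MPC-PTX. It was 2.32-fold lower, again with the lines apart (log2 fold change -1.21, standard error 0.10, edgeR adjusted p = 0.000219). Wnt3a, which lies 16.2 kb from Wnt9a and is the best known activator of the beta-catenin branch, had no count in any library. Both calls were kept under all 14 alternatives.

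Wnt7a, a ligand of limb and reproductive tract patterning, fell less. Its levels were 45.0, 35.5 and 32.2 CPM in MPC and 21.6, 20.9 and 21.9 CPM in MPC-PTX, so the lowest MPC library still lay above the highest MPC-PTX library (log2 fold change -0.81, standard error 0.13, edgeR adjusted p = 0.00395). Its close relative Wnt7b was the most abundant ligand per kb of exon in both lines, and stood at 351, 306 and 262 CPM in MPC and at 261, 257 and 255 CPM in MPC-PTX. The lines did not overlap for Wnt7b, but MPC replicate 3 lay next to the MPC-PTX libraries and the gene was not called (log2 fold change -0.25, standard error 0.10, edgeR adjusted p = 0.114). Without MPC replicate 3 the log2 fold change was -0.40 (edgeR adjusted p = 0.000209), and Wnt7b was also called under the correction for GC content and length. Part of the exons of Wnt7b, 6.6% of the bases, lies opposite the antisense gene AU022754.

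Wnt16 at chr6:22288227-22298522 was a low-level ligand in both lines. It stood at 0.797, 1.03 and 0.673 CPM in MPC and at 2.35, 1.98 and 1.49 CPM in MPC-PTX, which did not overlap (log2 fold change 1.23, standard error 0.28, edgeR adjusted p = 0.0145). This call was lost without MPC-PTX replicate 1 (edgeR adjusted p = 0.0659) and without MPC-PTX replicate 2 (0.0563). Wnt11 and Wnt2b were also low, at 1.58 to 2.32 CPM and 0.309 to 1.07 CPM over the 6 libraries, and the lines overlapped for both (edgeR adjusted p = 0.498 and 0.320).

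**Figure D2:**
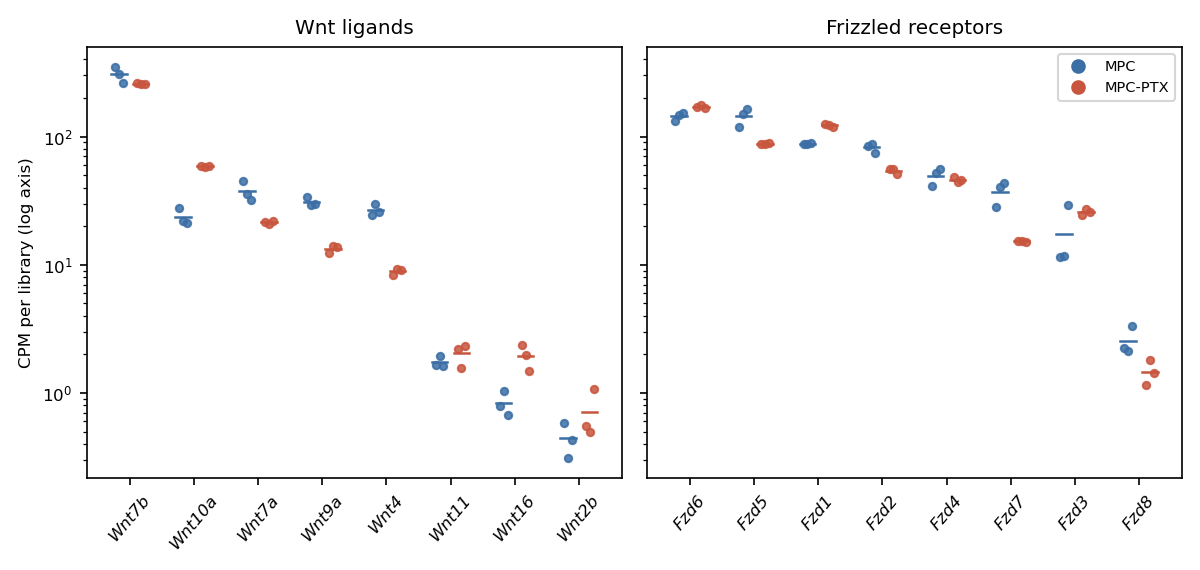
Level of each tested WNT ligand (left) and Frizzled receptor (right) in every library, in CPM on a log axis, with MPC in blue, MPC-PTX in red and horizontal lines at the mean of 3 libraries. The MPC-PTX points of Wnt10a, near 59 CPM, lie above every MPC point, and those of Wnt4, Wnt9a, Wnt7a, Fzd5, Fzd2 and Fzd7 lie below.

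The remaining ligands gave no signal that could be compared. Wnt2, Wnt3, Wnt3a, Wnt8a, Wnt8b and Wnt9b had no count in any library, which allows a level of up to 0.130 to 0.181 CPM depending on the library (3 counts, counting error only). Wnt1, Wnt10b, Wnt5a, Wnt5b and Wnt6 had at most 6 counts. The lines held almost no RNA of Wnt3a, of the non-canonical ligands Wnt5a and Wnt5b, or of the ligands that lie close to one another on a chromosome with Wnt10a or Wnt9a. The pairs Wnt9b and Wnt3, 24.3 kb apart on chromosome 11, and Wnt1 and Wnt10b, 11.7 kb apart on chromosome 15, were at or near 0 throughout.

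Per kb of exon, the ligands' mix shifted while Wnt7b stayed first. Wnt7b made up 62.2% ± 1.3 of the summed CPM per kb of all ligands in MPC and 58.1% ± 0.53 in MPC-PTX (SD, n = 3 libraries each). Wnt10a moved from 9.53% ± 0.54 to 26.2% ± 0.28, from the third place to the second. Wnt7a went from 11.8% ± 0.61 to 7.48% ± 0.15, Wnt9a from 9.31% ± 0.78 to 4.43% ± 0.32 and Wnt4 from 6.43% ± 1.1 to 2.34% ± 0.15. In MPC, Wnt10a and Wnt9a differed by less than their SD, so their order there is not set. With the longest transcript in place of all exons, Wnt10a held 7.47% in MPC and 20.8% in MPC-PTX, at the same ranks. The summed level of all ligands was 486, 426 and 374 CPM in MPC and 367, 363 and 364 CPM in MPC-PTX, and MPC replicate 3 lay close to the MPC-PTX libraries. The sums per kb, from which the shares were taken, were 113.9, 99.2 and 88.1 CPM per kb in MPC. In MPC-PTX they were 91.0, 89.9 and 90.5 CPM per kb, so by this measure the lines overlapped.

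**Figure D3:**
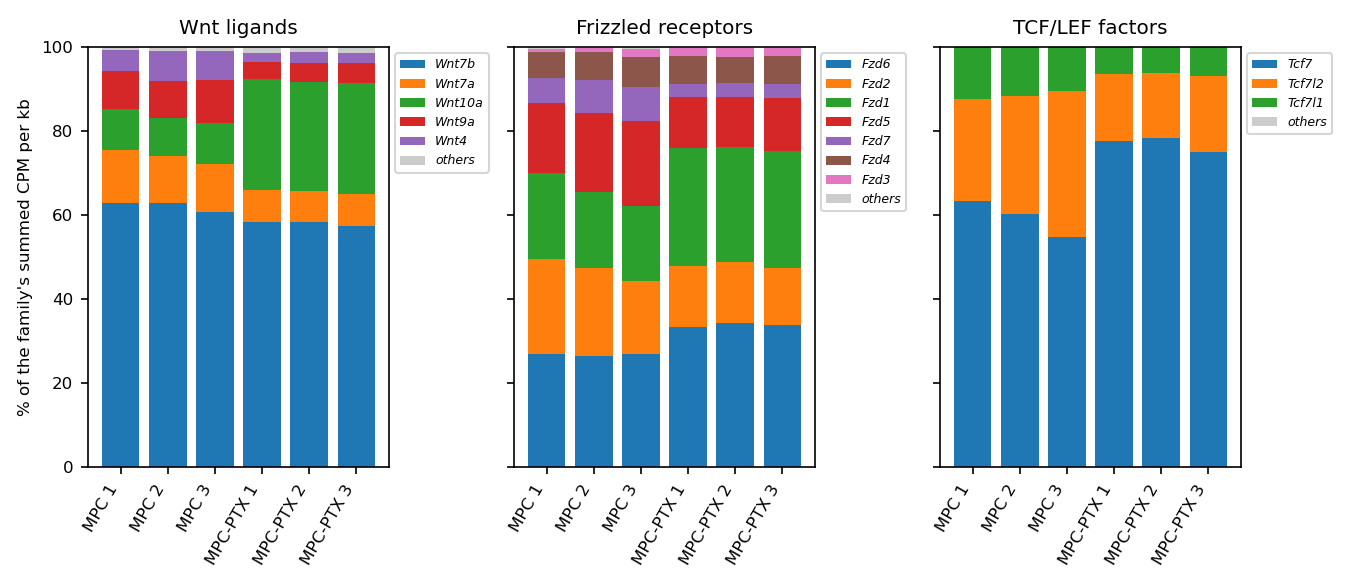
Share of each gene in its family's summed CPM per kb of exon, in % per library, for WNT ligands, Frizzled receptors and TCF/LEF factors, with genes under 1% in both lines pooled as others. Wnt10a takes 26.2% of the ligand total in MPC-PTX against 9.53% in MPC, and Fzd6 and Fzd1 together take more of the Frizzled total in MPC-PTX.

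The DNA upstream of the genes that differed most is shown because TCF/LEF factors, themselves among the genes that changed, bind short sites in the promoters of many WNT targets. RefSeq windows (GRCm38.p6) were found for 35 of the 53 genes and for 4 of the 5 with a log2 fold change beyond 1. For these 4, the bases that lie before the first annotated start are printed from 5′ to 3′ on the plus strand, the strand of all 4 genes. Capitals mark a match to a TCF/LEF core motif, searched on both strands as CTTTG followed by 2 bases that are each A or T. No other motif was searched. Wnt4 is given from chr4:137277385-137277488, Wnt9a from chr11:59306680-59306927, Wnt16 from chr6:22287977-22288226 and Fzd7 from chr1:59481897-59482146.
Wnt4: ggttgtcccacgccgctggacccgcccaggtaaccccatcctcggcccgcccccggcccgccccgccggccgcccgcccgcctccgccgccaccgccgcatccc
Wnt9a: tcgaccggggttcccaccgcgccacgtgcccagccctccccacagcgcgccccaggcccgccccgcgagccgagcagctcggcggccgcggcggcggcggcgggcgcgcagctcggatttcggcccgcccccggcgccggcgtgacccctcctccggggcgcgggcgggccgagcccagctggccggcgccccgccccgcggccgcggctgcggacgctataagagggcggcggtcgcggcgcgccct
Wnt16: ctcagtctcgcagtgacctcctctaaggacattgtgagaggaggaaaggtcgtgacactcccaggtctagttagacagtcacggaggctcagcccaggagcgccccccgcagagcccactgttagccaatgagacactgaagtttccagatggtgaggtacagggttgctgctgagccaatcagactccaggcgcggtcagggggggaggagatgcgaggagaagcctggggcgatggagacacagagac
Fzd7: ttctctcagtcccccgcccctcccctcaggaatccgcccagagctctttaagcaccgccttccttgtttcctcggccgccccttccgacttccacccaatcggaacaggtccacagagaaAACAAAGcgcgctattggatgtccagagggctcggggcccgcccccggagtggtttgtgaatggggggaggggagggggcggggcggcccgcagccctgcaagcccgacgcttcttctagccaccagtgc
The stretch of Fzd7 held 1 match, CTTTGTT on the minus strand, starting 130 bases before the RefSeq start site. The stretches of Wnt4, Wnt9a and Wnt16 held none. Among all 32851 mouse windows, 14.8% held a match in the 250 bases before the start site, beside 13.3% of the 45 windows of the 35 genes, so these letters were about as frequent as elsewhere. In base composition the stretches ranged from 59.2% G and C for Wnt16 to 83.7% for Wnt4 and 84.3% for Wnt9a, with 65.2% for Fzd7. A match is a description of the letters and not a binding site.

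Among the Frizzled receptors, 8 of 10 were tested, Fzd1 and Fzd6 rose, and Fzd7, Fzd5 and Fzd2 fell. Fzd7 at chr1:59482424-59486955, a receptor known from intestinal stem cells, moved most. It stood at 28.1, 40.4 and 43.1 CPM in MPC and at 15.3, 15.3 and 15.0 CPM in MPC-PTX, a 2.44-fold lower mean level with all MPC libraries above all MPC-PTX libraries (log2 fold change -1.29, standard error 0.16, edgeR adjusted p = 0.00129). Fzd5, a receptor with roles in Paneth cells and in the placenta, stood at 118, 149 and 165 CPM in MPC and at 87.5, 86.7 and 88.8 CPM in MPC-PTX. It was lower without overlap (log2 fold change -0.71, standard error 0.12, edgeR adjusted p = 0.00449), and 17.8% of its exon bases lie opposite the predicted gene Gm38058. Fzd2, close in sequence to Fzd1 and Fzd7, stood at 84.1, 88.1 and 74.6 CPM in MPC and at 56.2, 55.6 and 50.6 CPM in MPC-PTX, so it moved with Fzd7 (log2 fold change -0.60, standard error 0.09, edgeR adjusted p = 0.00253). The calls for these 3 genes were kept under all 14 alternatives.

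Fzd1 moved against its relatives. It stood at 87.9, 87.6 and 89.2 CPM in MPC and at 125, 122 and 119 CPM in MPC-PTX, a tight level in each line (log2 fold change 0.47, standard error 0.06, edgeR adjusted p = 0.00126). Fzd1 lies at chr5:4753839-4758035, and genes around it were higher in MPC-PTX as well. Within 1 Mb of it, 10 of 11 tested genes had a log2 fold change above 0 (median 0.81). In the first 20 Mb of the chromosome, a stretch chosen after values were seen, this held for 39 of 41 tested genes, Fzd1 among them. The median of the 41 was 1.17, beside 0.043 for all genes tested, and 36 of them exceeded Fzd1. The part of this stretch in the change of Fzd1 was not tested.

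Fzd6, which acts in planar cell polarity and in hair patterning, stood at 133, 146 and 153 CPM in MPC and at 170, 175 and 166 CPM in MPC-PTX. The lines did not overlap, but the difference was small (log2 fold change 0.24, standard error 0.07, edgeR adjusted p = 0.0380), and it was called under 5 of 14 alternatives, with an adjusted p of up to 0.156. Leaving out any library but MPC replicates 1 and 3 lost the call, with an edgeR adjusted p of 0.102 without MPC replicate 2 and of 0.128, 0.156 and 0.107 without MPC-PTX replicates 1, 2 and 3. Fzd4, a receptor for norrin as well as WNT, stood at 41.2, 51.9 and 55.8 CPM in MPC and at 48.0, 44.3 and 45.6 CPM in MPC-PTX, and the lines overlapped (log2 fold change -0.11, standard error 0.12, edgeR adjusted p = 0.516). Without MPC replicate 1 it was called lower (log2 fold change -0.23, edgeR adjusted p = 0.0496). Fzd3, a receptor of axon guidance, rested on MPC replicate 3. It stood at 11.5, 11.7 and 29.2 CPM in MPC and at 24.4, 27.4 and 25.8 CPM in MPC-PTX, so MPC replicate 3 lay above all MPC-PTX libraries and the other MPC libraries far below (log2 fold change 0.56, standard error 0.36, edgeR adjusted p = 0.282). Without that library Fzd3 was called higher (log2 fold change 1.10, edgeR adjusted p = 1.97e-05). Among the 14 alternatives, only this fit called it. With the correction for GC content and length the log2 fold change was 0.21 and Fzd3 was not called (edgeR adjusted p = 0.133). Fzd8 was low, at 2.11 to 3.32 CPM in MPC and 1.15 to 1.80 CPM in MPC-PTX (log2 fold change -0.81, standard error 0.27, edgeR adjusted p = 0.0594). Fzd10 had no count, and Fzd9 had at most 4.

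Per kb of exon, Fzd6 was the leading Frizzled in both lines, with 26.8% ± 0.34 of the family's summed CPM per kb in MPC and 33.9% ± 0.52 in MPC-PTX. Behind it the order changed. In MPC, Fzd2 (20.2% ± 2.7), Fzd1 (18.9% ± 1.4) and Fzd5 (18.6% ± 1.8) lay within each other's SD, whereas in MPC-PTX Fzd1 (27.9% ± 0.32) stood above Fzd2 (14.2% ± 0.52) and Fzd5 (12.2% ± 0.39). Fzd7 went from 7.30% ± 1.1 to 3.22% ± 0.033. The summed level of all Frizzleds was 506 to 613 CPM in MPC and 513 to 528 CPM in MPC-PTX, so the totals overlapped while the mix differed. The longest transcript in place of all exons gave the same ranks for these 5 genes.

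The LRP co-receptors were not called with all 6 libraries. Lrp6 stood at 54.4, 65.6 and 110.0 CPM in MPC and at 112, 120 and 121 CPM in MPC-PTX, with MPC replicate 3 next to the MPC-PTX libraries (log2 fold change 0.62, standard error 0.25, edgeR adjusted p = 0.105). Without MPC replicate 3 it was called higher, with a log2 fold change of 0.92 (edgeR adjusted p = 3.42e-05). With the correction for GC content and length the log2 fold change was 0.26, and it was called as well (edgeR adjusted p = 0.00614). The direction of Lrp6 was thus shared by these settings and its size was not. Lrp5 stood at 119, 118 and 111 CPM in MPC and at 110, 108 and 108 CPM in MPC-PTX, a small difference (log2 fold change -0.10, standard error 0.06, edgeR adjusted p = 0.274) that was called only without MPC replicate 3 among the 14 alternatives (log2 fold change -0.18, edgeR adjusted p = 0.0117).

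Of the R-spondin receptors, Lgr6 fell, Lgr4 was tested and not called, and Lgr5 had too few counts for a test. Lgr6, a receptor that marks stem cells of skin, fell from 32.9, 39.2 and 41.2 CPM in MPC to 26.5, 24.8 and 23.4 CPM in MPC-PTX without overlap (log2 fold change -0.60, standard error 0.11, edgeR adjusted p = 0.00623). Lgr4, the most widely expressed of the 3, stood at 31.1, 33.2 and 44.9 CPM in MPC and at 26.6, 27.6 and 27.9 CPM in MPC-PTX. The lines did not overlap for Lgr4 either, and it was not called with all 6 libraries (log2 fold change -0.41, standard error 0.14, edgeR adjusted p = 0.0682), while 9 of 14 alternatives called it. Among these were the fits without MPC replicate 1 (log2 fold change -0.51, edgeR adjusted p = 0.0227) and without MPC replicate 3 (log2 fold change -0.28, edgeR adjusted p = 0.0140). Lgr5, the marker of stem cells at the base of gastric and intestinal glands, had 2, 1 and 0 counts in MPC and 0, 0 and 1 counts in MPC-PTX. The ligands of these receptors were not found in the cells either, since Rspo1, Rspo2, Rspo3 and Rspo4 and norrin (Ndp) had at most 1 count in any library.

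None of the secreted inhibitors reached the level needed for a test. Dkk1, Dkk2 and Dkk4, which block LRP co-receptors, and Sfrp2, which binds WNT, had no count in any library. Dkk3, Sfrp1, Sfrp4 and Sfrp5 had at most 8 counts. Another 7 secreted antagonists, among them Wif1, Frzb and Sost, had at most 10 counts. RNA of these 7 and of the DKK and SFRP genes was thus near the limit of detection in both lines. Notum, which is also secreted, was detected and is given with the feedback genes.

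The feedback genes did not move together. Notum, the secreted enzyme that inactivates WNT, stood at 1.86, 1.75 and 1.15 CPM in MPC and at 3.38, 2.84 and 2.79 CPM in MPC-PTX. All MPC-PTX libraries lay above all MPC libraries, with a 1.90-fold higher mean level (log2 fold change 0.93, standard error 0.23, edgeR adjusted p = 0.0201). The call was lost without MPC replicate 2 (edgeR adjusted p = 0.0515) and without MPC-PTX replicate 1 (0.0880), 2 (0.0624) or 3 (0.0580), and was kept without MPC replicate 3 with a log2 fold change of 0.69 (edgeR adjusted p = 0.0249). Antisense genes share 29.4% (Notumos) and 8.7% (Myadml2os) of its exon bases, and whether counting used strand was not stated, so reads of Notum and of these genes cannot be told apart. Axin2, the most widely used readout of the beta-catenin branch, had only 7, 9 and 9 counts in MPC and 5, 12 and 12 counts in MPC-PTX, and no difference was detectable at this depth. Nkd1, another target and inhibitor, had no count. Rnf43 stood at 22.9, 25.9 and 25.3 CPM in MPC and at 23.9, 22.8 and 22.0 CPM in MPC-PTX, and the lines overlapped (log2 fold change -0.11, standard error 0.09, edgeR adjusted p = 0.392). Znrf3 stood at 18.7, 20.7 and 26.8 CPM in MPC and at 26.2, 24.8 and 26.0 CPM in MPC-PTX, with only MPC replicate 3 reaching the MPC-PTX levels (log2 fold change 0.22, standard error 0.14, edgeR adjusted p = 0.277), and it was called higher without that library (log2 fold change 0.33, edgeR adjusted p = 0.0127).

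Ctnnb1, which encodes beta-catenin, was the most abundant of the 53 genes per kb of exon, at a mean of 152 CPM per kb in MPC and 132 CPM per kb in MPC-PTX. It stood at 764, 782 and 828 CPM in MPC and at 687, 680 and 693 CPM in MPC-PTX, lower without overlap but by a small amount (log2 fold change -0.20, standard error 0.06, edgeR adjusted p = 0.0360). The call was kept under 7 of 14 alternatives, with an adjusted p of up to 0.155, and was lost without MPC replicate 2 (edgeR adjusted p = 0.0966) and without MPC-PTX replicate 1 (0.136), 2 (0.155) or 3 (0.126). Ulk4 on the opposite strand covers 14.6% of its exon bases, with at most 58 counts of its own. Axin1, the scaffold of the destruction complex, stood at 142, 143 and 126 CPM in MPC and at 146, 140 and 141 CPM in MPC-PTX, and the lines overlapped (log2 fold change 0.05, standard error 0.07, edgeR adjusted p = 0.598). Its direction turned without MPC replicate 3 (log2 fold change -0.05, edgeR adjusted p = 0.369).

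All 3 tested TCF factors were called, in opposite directions. Tcf7, which encodes TCF1 and is also a target of the pathway, rose from 27.4, 27.5 and 23.5 CPM in MPC to 39.0, 38.4 and 35.9 CPM in MPC-PTX (log2 fold change 0.53, standard error 0.09, edgeR adjusted p = 0.00536). Tcf7l2, which encodes TCF4 of the intestinal epithelium, fell from 35.3, 42.7 and 49.8 CPM to 26.6, 25.4 and 28.7 CPM (log2 fold change -0.66, standard error 0.13, edgeR adjusted p = 0.00923), and its call was lost without MPC-PTX replicate 2 (edgeR adjusted p = 0.0502). Tcf7l1, which encodes the mostly repressive TCF3, fell from 7.97, 7.94 and 6.73 CPM to 4.87, 4.46 and 4.99 CPM (log2 fold change -0.66, standard error 0.13, edgeR adjusted p = 0.00857). The lines did not overlap for any of the 3. Lef1 had 0, 0 and 0 counts in MPC and 2, 0 and 1 counts in MPC-PTX. Per kb of all exons, Tcf7 made up 59.4% ± 4.3 of the family's summed CPM per kb in MPC and 77.0% ± 1.8 in MPC-PTX, and Tcf7l2 29.1% ± 5.2 and 16.4% ± 1.3. The order of these genes in MPC depended on the length used, since with the longest transcript Tcf7l2 held 46.7% ± 6.3 in MPC and Tcf7 43.2% ± 5.0, which differ by less than their SD and leave the order there unset. By library, Tcf7 was ahead in MPC replicate 1 (47.7 against 41.0%) and Tcf7l2 most clearly in MPC replicate 3 (53.4 against 37.8%). In MPC-PTX Tcf7 led with 63.4% ± 2.3 against 30.1% ± 2.0.

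**Figure D4:**
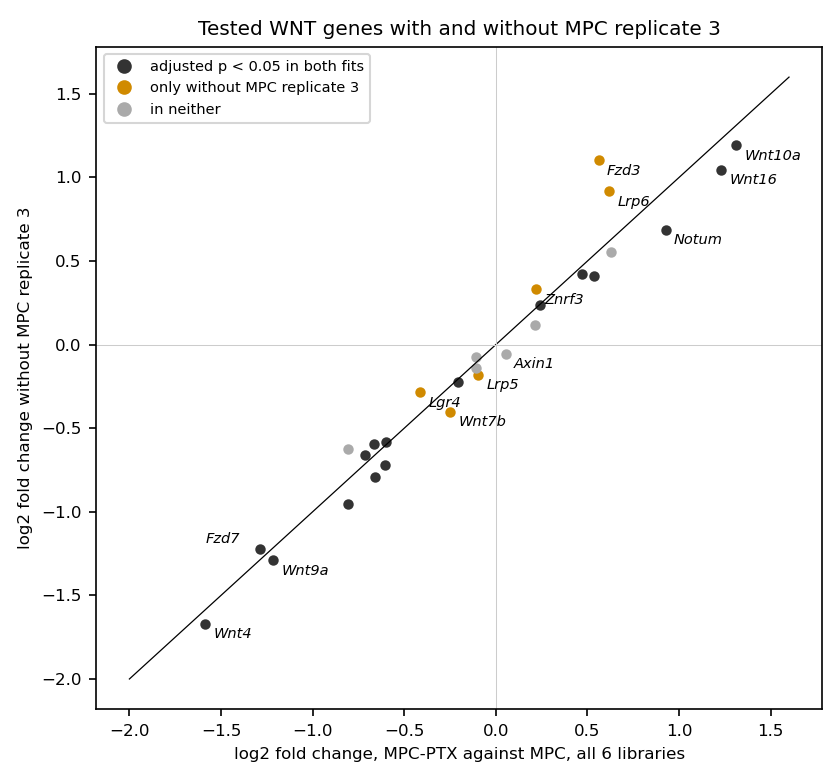
Log2 fold change of MPC-PTX against MPC for the 28 tested genes with all 6 libraries (horizontal) and without MPC replicate 3 (vertical), with the line of equal values. The 16 genes called with all libraries stay called, 6 others (orange) are called only without that library, and Fzd3 moves farthest, from 0.56 to 1.10.

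Removal of MPC replicate 3 had a wide effect. The count of called WNT genes went from 16 to 22, with all 16 retained and Fzd3, Lgr4, Lrp5, Lrp6, Wnt7b and Znrf3 added. Among all genes tested, the share called went from 29.7 to 52.7%, so the larger count of WNT genes came with a larger count of genes of every kind. The correction for GC content and length called 20 of the 28, adding Fzd8, Lgr4, Lrp6 and Wnt7b, while the share called among all genes tested rose to 40.6%. Fzd3, Lrp5 and Znrf3 were not called under this correction.

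Around these genes, 108 further genes of the pathway were in the tables, of which 72 were tested, 8 rose and 15 fell, a called share of 31.9% beside 29.7% of all genes tested. Without MPC replicate 3, 16 rose and 24 fell, with the 23 called before retained and 17 added, beside 52.7% of all genes tested. In the secretion of WNT both listed genes fell. Porcn, the acyltransferase that attaches the lipid to WNT, stood at 14.1, 16.6 and 14.9 CPM in MPC and at 6.75, 8.66 and 7.72 CPM in MPC-PTX (log2 fold change -0.98, standard error 0.13, edgeR adjusted p = 0.00157). Wls, the carrier that brings WNT to the cell surface, stood at 225, 273 and 276 CPM in MPC and at 183, 192 and 190 CPM in MPC-PTX (log2 fold change -0.46, standard error 0.09, edgeR adjusted p = 0.00795). Of 6 tested co-receptors and membrane regulators, none rose and Kremen1 and Tmem67 fell, a called share of 33.3% beside 29.7% of all genes tested. The call of Kremen1 was lost without any 1 of the MPC-PTX libraries (edgeR adjusted p = 0.0562, 0.0742 and 0.0602 without replicates 1, 2 and 3), and that of Tmem67 without MPC-PTX replicate 1 (0.0690) or 2 (0.0654). In the planar polarity and non-canonical list, Celsr1 and Celsr2 rose and Vangl1 and Gpc4 fell among 10 tested genes. Their called share was 40.0% beside 29.7% of all genes tested. Vangl1 lost its call without MPC replicate 2 (edgeR adjusted p = 0.133) and without MPC-PTX replicate 1 (0.106), 2 (0.125) or 3 (0.125). Gpc4, a cell surface proteoglycan, stood at 24.4, 29.2 and 29.6 CPM in MPC and at 13.2, 12.7 and 12.9 CPM in MPC-PTX (log2 fold change -1.10, standard error 0.10, edgeR adjusted p = 0.000359). The receptors Ror1 and Ror2 had at most 1 count, whereas Ryk and Ptk7 were at 92.3 to 134 CPM and were not called with all 6 libraries. Without MPC replicate 3, Ptk7 was called lower (log2 fold change -0.24 against -0.11 with all libraries, edgeR adjusted p = 0.00345). The correction for GC content and length did not call it (log2 fold change -0.08, edgeR adjusted p = 0.265).

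Of 20 tested genes of the Dishevelled proteins and the destruction complex, Nkd2 rose, Csnk1e and Csnk1g2 fell and the other 17 were not called, a called share of 15.0% beside 29.7% of all genes tested. Without MPC replicate 3, 10 of the 20 were called, beside 52.7% of all genes tested. The 7 added were Apc (log2 fold change 1.00 against 0.46 with all libraries, edgeR adjusted p = 0.00131), Gsk3b, Csnk1a1, Csnk1g3, Tnks and Tnks2, which were higher, and Csnk1d, which was lower. Of these, the correction for GC content and length called Csnk1a1 and Csnk1g3 higher (log2 fold change 0.18 and 0.27, edgeR adjusted p = 0.0231 and 0.0213). It did not call Apc (log2 fold change 0.18, edgeR adjusted p = 0.252), Gsk3b (-0.02, 0.791), Tnks (0.14, 0.170), Tnks2 (-0.0034, 0.966) or Csnk1d (-0.08, 0.234). Without MPC replicate 1, Dvl1 was called higher (log2 fold change 0.57 against 0.41, edgeR adjusted p = 0.00273), and so was Dvl2 (log2 fold change 0.30 against 0.14, edgeR adjusted p = 0.0256). Gsk3a and Dvl3 were called neither without MPC replicate 3 nor without MPC replicate 1. Nkd2, a Dishevelled inhibitor related to Nkd1, stood at 1.06, 1.03 and 0.961 CPM in MPC and at 3.93, 4.10 and 3.62 CPM in MPC-PTX (log2 fold change 1.93, standard error 0.17, edgeR adjusted p = 0.000287), the largest rise in the pathway lists. Of 21 tested nuclear cofactors, Tle1 and Tle4 rose and Tle5 and Smarca4 fell, a called share of 19.05% beside 29.7% of all genes tested. Without MPC replicate 3, 11 of the 21 were called, 7 of them added, beside 52.7% of all genes tested. Among 14 tested genes reported elsewhere as targets of the pathway, Nkd2, Bmp4, Tcf4 and Nr2f2 rose and Ephb2, Ephb3, Cldn2, Jag1 and Id2 fell. Their called share was 64.3% beside 29.7% of all genes tested, and Nkd2 is counted in this list and in the Dishevelled list. The gene Tcf4 is separate from Tcf7l2, whose protein is also named TCF4. Cldn2, a pore-forming claudin, stood at 28.6, 49.5 and 50.7 CPM in MPC and at 2.18, 1.53 and 2.14 CPM in MPC-PTX (log2 fold change -4.46, standard error 0.29, edgeR adjusted p = 0.000116). Ephb2, a receptor that positions cells along intestinal crypts, stood at 23.9, 28.9 and 27.2 CPM in MPC and at 11.1, 11.6 and 10.5 CPM in MPC-PTX (log2 fold change -1.27, standard error 0.11, edgeR adjusted p = 0.000211). Myc stood at 208, 117 and 112 CPM in MPC and at 202, 193 and 192 CPM in MPC-PTX, with MPC replicate 1 above the other MPC libraries and level with MPC-PTX (log2 fold change 0.43, standard error 0.23, edgeR adjusted p = 0.213). Without MPC replicate 1, Myc was called higher (log2 fold change 0.78, edgeR adjusted p = 0.000172), beside 36.1% of all genes called. So were Ccnd1 (log2 fold change 0.24 against 0.04 with all libraries, edgeR adjusted p = 0.0214) and Sox9 (0.33 against 0.19, edgeR adjusted p = 0.0142). Slc12a2 was called higher without MPC replicate 3 (log2 fold change 0.46 against 0.20, edgeR adjusted p = 0.00285), beside 52.7% of all genes called. The correction for GC content and length did not call Slc12a2 (log2 fold change 0.09, edgeR adjusted p = 0.424). Cd44 was not called. Sp5, Ascl2 and Tnfrsf19, targets often read beside Axin2 and Lgr5, had at most 1 count in any library. Of these calls, Csnk1e was lost without any 1 of the MPC-PTX libraries (edgeR adjusted p of 0.0824 to 0.0880), and Tle4 without MPC replicate 2 or MPC-PTX replicate 1 or 3 (0.0637 to 0.0838). Jag1 (0.0666 to 0.170) and Nr2f2 (0.0815 to 0.0988) were lost without MPC replicate 2 or any 1 of the MPC-PTX libraries, and Tcf4 (0.0686 to 0.111) without any library but MPC replicate 3. Bmp4 (0.0518) and Id2 (0.0526) were lost without MPC-PTX replicate 2. Genes of these lists with a log2 fold change within 1 are named here after their values were seen.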

How the data were processed

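Poly-A RNA of 6 libraries was measured, 3 of MPC and 3 of MPC-PTX, grouped by the labels. The authors filtered reads with fastp 0.22.0 and mapped them with HISAT2, and the deposited values were raw counts per gene for each library, neither normalized nor pooled. The build, gene models, counting program, strand setting and handling of multi-mapped reads were not given in the sources used here, so counts of overlapping or closely related genes are uncertain. A poly-A selection was followed by random-primed cDNA, which by itself does not mark strand.

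Low genes were removed with edgeR's filterByExpr (minimum count 10), and the rest scaled with TMM and tested across 11795 genes with edgeR 4.0.16 (glmQLFit, robust, glmQLFTest, R 4.3.3), adjusting p-values by the Benjamini-Hochberg method and calling genes at 0.05. CPM values are per TMM-scaled library, and levels per kb use union exon lengths of GENCODE M21 (GRCm38). A zero was taken to allow 3 counts. Reads carried no molecular identifiers, so such limits cover counting error only. The test was also run on simulated counts with known changes. Depth was 16574580 to 23148182 counts per library. With 3 libraries against 3, an exact permutation test of a single gene cannot go below a p of 0.1. Promoter sequences came from RefSeq (GRCm38.p6), matched by symbol.

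Alternatives were DESeq2 1.42.0, DESeq2 size factors, total counts alone, other count filters, the replicate number as a block, a loess correction for GC content and length (span 0.3, known for 11776 of the tested genes), each library left out, and the longest transcript as length. The members, the lists of pathway and marker genes and the tests were chosen with earlier results of these data known. By rule, called members are given with every library, members not called with values where they reached 5 CPM, filtered members by their counts, and pathway genes with values where called with a log2 fold change beyond 1. The authors' own comparison was not used.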

Additional observations from a re-analysis of the deposited data

How the results depend on the processing

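Of the 16 WNT genes called, 11 were kept under all 14 alternatives, and Wnt16, Notum, Fzd6, Ctnnb1 and Tcf7l2 lost the call under at least 1. The count of called WNT genes was 17 with DESeq2, 17 with DESeq2 size factors, 15 with total counts alone, 15 without a filter on low counts, 17 with at least 10 counts in every library, and 20 with the correction for GC content and length, with or without the replicate block (40.6 and 41.2% of all genes called). Whether the replicate numbers pair the libraries was not settled by the libraries' deviations. Those of same-numbered libraries correlated at 0.151, -0.023 and 0.173 for replicates 1, 2 and 3. MPC replicates 1 and 3 correlated best with the same-numbered MPC-PTX library, and MPC replicate 2 with MPC-PTX replicate 1 (0.153). With the replicate block 16 WNT genes were called, 14 of them shared, with Ctnnb1 and Fzd6 lost and Lgr4 and Lrp6 added. The number of other pathway genes that rose was 8, and 13 with the correction for GC content and length and the replicate block together. Leaving out each library in turn gave 3 to 9 WNT genes that rose, of which 1 to 3 had a log2 fold change beyond 1 (3 without MPC replicate 1, with Notum at 1.06, and 3 without MPC replicate 3, with Fzd3 at 1.10), 8 to 13 that fell, 5 to 16 other pathway genes that rose and 9 to 24 that fell, and 786 to 3003 of all genes tested that rose and 1065 to 3212 that fell, with the highest counts without MPC replicate 3. Among the 28 WNT genes tested, the one turn of direction was Axin1 without MPC replicate 3, with a log2 fold change of -0.0544 against up to 0.0849 without MPC replicate 2. Fits without an MPC-PTX library called 11 to 13 WNT genes, while the share called among all genes fell to at most 16.2%. Genes removed by the filter, among them Axin2 (at most 12 counts), Lgr5 and all DKK and SFRP genes, had too few counts for a firm comparison at this depth. Without the filter, Axin2 was not called (log2 fold change 0.16, standard error 0.52, edgeR adjusted p = 0.855).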
